A study of Mus musculus with 6 samples.

Results

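The Toll-like receptor family was examined in CD11b-selected spleen cells of transplanted mice, labelled as MDSCs (myeloid-derived suppressor cells, a mixed population defined by its ability to dampen T cell responses). The members were the 10 genes Tlr1 to Tlr9 and Tlr13, each represented by the probe set that carries that symbol alone in the platform annotation and, where several do, by the one with the highest mean over all 6 arrays. Of the 10, 9 had such a probe set, 1 each, and Tlr5, the flagellin receptor, was not analysed here. These 9 stand among 19938 genes with such a probe set and 13965 genes bright enough to be tested, and all 9 lay above the brightness threshold (a mean log2 value of 4.72, the 30th percentile of named probe sets). The cells came from spleens taken on day 10 after an allogeneic bone marrow transplantation. The recipients of both groups were B6D2F1/J mice that had been lethally irradiated and given B6 bone marrow freed of T cells. The labels state that B6 spleen cells were added to some grafts but do not tie this to single mice. One group of 3 mice received 1.5 mg/kg of rapamycin, which blocks mTOR complex signalling, by injection into the peritoneum on alternate days, and the other group of 3 mice received PBS on the same schedule. Cells were selected with magnetic beads against CD11b (Itgam), an integrin that neutrophils, monocytes, macrophages and part of the dendritic cells all carry, so each array reads a mixture of these cells. The ages of the mice were not given in the sources used here.

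Toll-like receptors are membrane proteins that recognise microbial molecules with a horseshoe-shaped array of leucine-rich repeats and signal through a cytoplasmic TIR domain. Members at the cell surface mostly bind lipids and proteins of microbes: TLR2 pairs with TLR1 or TLR6 to bind lipopeptides, and TLR4 binds lipopolysaccharide together with MD-2 and CD14. Members in endosomes bind nucleic acids: TLR3 binds double-stranded RNA, TLR7 and TLR8 bind RNA and its breakdown products, TLR9 binds unmethylated CpG DNA and TLR13 binds bacterial ribosomal RNA. All except TLR3 signal through the adaptor MyD88, and TLR3 and internalised TLR4 signal through TRIF (Ticam1), towards NF-kappa-B, MAP kinases and interferon regulatory factors. In myeloid cells these pathways drive cytokine production, and mTOR is known to modulate that response.

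Promoter sequences were read for the members called higher with rapamycin (Tlr1, Tlr4 and Tlr8, below) that had an entry in RefSeq's annotation of the mouse assembly GRCm38.p6. Of the 10 listed members, 8 were matched, with 10 annotated starts, and Tlr4 and Tlr7 were not matched. Each window runs 5′ to 3′ on the gene's strand from 250 bases before the annotated start to 50 bases after it. Capitals mark every match, on either strand, to one of 7 short motifs: GAGGAAGT for the myeloid factor PU.1, a pair of GAAA blocks with 2 bases of any kind between them for interferon regulatory factors, GGG and TTTCC with 2 bases of any kind between them for NF-kappa-B, TGANTCA for AP-1, TTGCNNAA for C/EBP factors, CACGTG for E-box factors such as TFEB and Myc, and TATAAA for the TATA box. Tlr1 has 2 annotated starts, both on the minus strand, with windows that span chr5:64933509-64933808 and chr5:64932650-64932949. Tlr8 has 1 on the minus strand, with a window that spans chrX:167264280-167264579.
Tlr1, first entry: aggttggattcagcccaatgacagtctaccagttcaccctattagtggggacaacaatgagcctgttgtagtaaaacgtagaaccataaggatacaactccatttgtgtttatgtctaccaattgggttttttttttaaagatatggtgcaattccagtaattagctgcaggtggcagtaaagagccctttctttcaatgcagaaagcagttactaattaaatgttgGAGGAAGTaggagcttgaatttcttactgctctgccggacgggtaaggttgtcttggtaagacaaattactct
Tlr1, second entry: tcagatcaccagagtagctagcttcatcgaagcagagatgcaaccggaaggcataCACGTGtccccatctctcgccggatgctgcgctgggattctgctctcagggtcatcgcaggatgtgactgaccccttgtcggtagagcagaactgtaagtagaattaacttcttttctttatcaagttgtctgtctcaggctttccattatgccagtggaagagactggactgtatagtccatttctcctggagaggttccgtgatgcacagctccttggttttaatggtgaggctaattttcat
Tlr8: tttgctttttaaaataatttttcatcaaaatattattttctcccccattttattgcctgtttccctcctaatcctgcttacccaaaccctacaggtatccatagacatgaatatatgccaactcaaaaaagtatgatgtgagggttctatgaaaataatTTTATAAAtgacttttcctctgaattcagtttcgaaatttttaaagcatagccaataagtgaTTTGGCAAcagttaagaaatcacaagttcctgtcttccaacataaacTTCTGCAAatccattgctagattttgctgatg
The first Tlr1 window holds a PU.1 match whose first base is at position -23 (the start is position 1, with no position 0), and the second holds an E-box at position -195. The Tlr8 window holds 2 C/EBP matches on the opposite strand, 1 on each side of the start, and a TATA match on each strand whose letters overlap in a single capital run. Among 32851 annotated promoter windows of the same length, 3.20% held the PU.1 motif, 7.15% the E-box, 10.8% the C/EBP motif and 13.6% the TATA motif. Of the 10 windows of the family, 2 held the PU.1 motif (Tlr1 and Tlr9), 4 the C/EBP motif (Tlr3, Tlr6, Tlr8 and Tlr13), 1 the NF-kappa-B motif (Tlr3), 1 the motif of interferon regulatory factors (Tlr6, 2 overlapping matches) and 1 the AP-1 motif (Tlr9). Over all windows the shares were 1.63% for NF-kappa-B, 3.44% for interferon regulatory factors and 7.81% for AP-1. These matches describe letters in the windows, and binding was not measured.

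The comparison of rapamycin with PBS asks how the mRNA levels of these receptors differed in the sorted cells with mTOR inhibition. Tlr1, Tlr4 and Tlr8 rose with rapamycin, by 1.70-fold, 1.31-fold and 1.18-fold, and 0 of the 9 measured members fell. The 6 others had mean differences above 0, between 0.10 and 0.27 on the log2 scale, that did not pass the test. Calls are from limma at an adjusted p under 0.05, with Benjamini-Hochberg adjustment over all 13965 genes tested, of which 4.42% were called higher, 6.92% lower and 11.3% in either direction. The members' log2 changes had a median of 0.22, against -0.02 over all genes tested, of which 44.4% had a change above 0. In 6 of the 9 members the 3 rapamycin arrays all lay above the 3 PBS arrays, which was so for 12.6% of all genes tested. In these mixed cell samples, a change in the number of cells of a type and a change in RNA per cell cannot be told apart. The limma adjusted p of the 3 calls ran from 0.0370 to 0.0465, close to the threshold, and the counts depended on single arrays. Dropping PBS replicate 1 left 1 member called (Tlr1), whereas dropping rapamycin replicate 3 gave 4 calls, with Tlr2 added. In limma fits that dropped the second PBS array, the third PBS array or the first rapamycin array, 0 members were called and 3 had an unadjusted p under 0.05 in each. The fit that dropped the second rapamycin array also called 0 members, with 4 at that unadjusted p. With all 19938 genes tested, dim ones included, 0 members were called with limma and 5 members had an unadjusted p under 0.05.

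**Figure D1:**
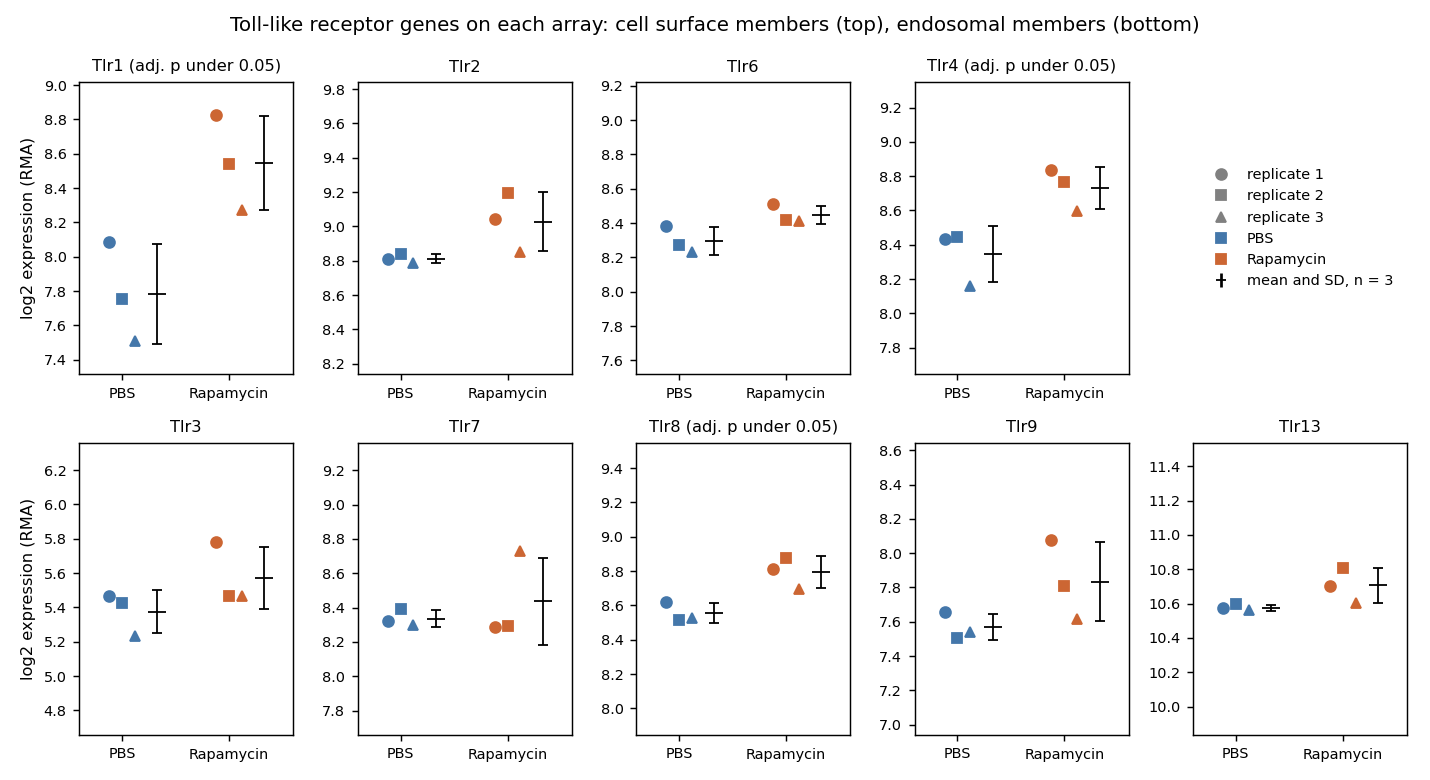
Log2 expression (RMA, vertical axes, each spanning the same log2 range around that gene's own values) of the 9 measured Toll-like receptor genes on the 3 PBS arrays (blue) and the 3 rapamycin arrays (orange), with marker shapes for the replicate numbers and the group mean with its SD beside them (n = 3). The rapamycin arrays of Tlr1 (8.27 to 8.83) lie above its PBS arrays (7.51 to 8.08), whereas Tlr7 has 1 rapamycin array at 8.73 and 2 at 8.29, below every PBS array.

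Among the surface receptors, Tlr1 showed the largest change of the measured members. It encodes the partner of TLR2 for triacylated lipopeptides. Its log2 values (probe set 10530145) were 8.08, 7.75 and 7.51 in PBS replicates 1, 2 and 3, and 8.83, 8.54 and 8.27 in rapamycin replicates 1, 2 and 3. The groups did not overlap, and the gap of 0.19 between the highest PBS and the lowest rapamycin array was smaller than the range within either group (0.58 and 0.55). The change was 0.76 ± 0.18 (log2, SE), from 7.78 ± 0.29 to 8.55 ± 0.28 (mean ± SD, n = 3 each), with limma's adjusted p of 0.0370. Dropping PBS replicate 1 (adjusted p 0.0474) or rapamycin replicate 3 (0.0380) kept the call. Dropping any of the 4 other arrays ended it, at 0.135 for PBS replicate 2, 0.112 for PBS replicate 3, 0.128 for rapamycin replicate 1 and 0.0955 for rapamycin replicate 2.

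Tlr2 encodes the subunit shared by the lipopeptide receptors. The log2 values of Tlr2 (probe set 10498992) were 8.81, 8.84 and 8.79 in the PBS arrays and 9.04, 9.19 and 8.85 in the rapamycin arrays. The PBS arrays were nearly equal, and rapamycin replicate 3 lay only 0.01 above the highest of them. The difference of 0.22 ± 0.08 (log2, SE) did not pass limma's test over all genes (adjusted p 0.141), and its 95% interval ran from 0.02 to 0.41. Without rapamycin replicate 3 the difference was 0.31 and passed the test (limma adjusted p 0.0368).

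Tlr6 encodes the partner of TLR2 for diacylated lipopeptides and is the gene next to Tlr1 on chromosome 5 in the RefSeq table, with 0 genes starting between them. On the arrays, Tlr6 (probe set 10530151) had log2 values of 8.39, 8.27 and 8.23 in the PBS arrays and 8.51, 8.42 and 8.41 in the rapamycin arrays. The groups were separated by 0.03, and the difference of 0.15 ± 0.06 (log2, SE; 95% interval 0.02 to 0.28) did not pass limma's test (adjusted p 0.134). The neighbours were then compared within each array, a comparison chosen after their values were seen. The log2 value of Tlr1 minus that of Tlr6 was -0.30, -0.52 and -0.72 in the PBS arrays and 0.32, 0.12 and -0.14 in the rapamycin arrays. The mean shift of 0.61 had a 2-sided exact permutation p of 0.1, the smallest that 3 against 3 arrays allow, so it could not pass a threshold of 0.05 (0.2 when adjusted over the 2 neighbour pairs compared). The 2 genes are related in sequence, and signal shared between their probe sets was not tested.

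Tlr4 encodes the lipopolysaccharide receptor. The log2 values of Tlr4 (probe set 10505517) were 8.43, 8.44 and 8.16 in the PBS arrays and 8.84, 8.76 and 8.60 in the rapamycin arrays. All rapamycin arrays lay above all PBS arrays, by at least 0.15. The change was 0.39 ± 0.10 (log2, SE), from 8.35 ± 0.16 to 8.73 ± 0.12 (mean ± SD, n = 3 each), with limma's adjusted p of 0.0443. With 1 array left out, the call was kept only without rapamycin replicate 3 (adjusted p 0.0462), and the other 5 fits gave an adjusted p between 0.0872 and 0.159.

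Among the endosomal receptors, Tlr8 was the only one called. It encodes a receptor for RNA breakdown products. Its log2 values (probe set 10607868) were 8.62, 8.51 and 8.53 in the PBS arrays and 8.81, 8.88 and 8.70 in the rapamycin arrays. The groups were separated by 0.08, and the change was 0.24 ± 0.06 (log2, SE), from 8.55 ± 0.06 to 8.79 ± 0.09 (mean ± SD, n = 3 each), with limma's adjusted p of 0.0465. With 1 array left out, the call was kept only without rapamycin replicate 3 (adjusted p 0.0340), and the other 5 fits gave an adjusted p between 0.0736 and 0.152. With the medians of all probe sets aligned between arrays it was lost as well (0.0535).

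Tlr7, which encodes the receptor for single-stranded RNA, lies next to Tlr8 on the X chromosome. On the arrays, Tlr7 (probe set 10607870) had log2 values of 8.32, 8.39 and 8.30 in the PBS arrays and 8.29, 8.29 and 8.73 in the rapamycin arrays. Rapamycin replicate 3 alone stood above the PBS arrays, and the other 2 stood below all of them. The difference was 0.10 ± 0.12 (log2, SE; adjusted p 0.619 with limma), with a 95% interval from -0.17 to 0.37, and without rapamycin replicate 3 it was -0.05. The log2 value of Tlr8 minus that of Tlr7 was 0.30, 0.13 and 0.23 in the PBS arrays and 0.52, 0.59 and -0.03 in the rapamycin arrays. The groups overlapped, and the mean shift of 0.14 had a 2-sided exact permutation p of 0.5 (0.5 when adjusted over the 2 neighbour pairs).

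Tlr9 encodes the receptor for CpG DNA, which B cells and plasmacytoid dendritic cells also carry. Log2 values of Tlr9 (probe set 10588479) were 7.65, 7.51 and 7.54 in the PBS arrays and 8.07, 7.81 and 7.62 in the rapamycin arrays. Rapamycin replicate 3 fell within the PBS range, and the difference of 0.27 ± 0.11 (log2, SE; 95% interval 0.01 to 0.52) did not pass limma's test (adjusted p 0.170).

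Tlr13 encodes the receptor for bacterial ribosomal RNA. Its log2 values (probe set 10601385) were 10.57, 10.60 and 10.56 in the PBS arrays and 10.70, 10.81 and 10.61 in the rapamycin arrays. The lowest rapamycin array lay 0.01 above the highest PBS array, and the difference of 0.13 ± 0.06 (log2, SE; 95% interval -0.01 to 0.27) did not pass limma's test (adjusted p 0.203). Tlr3 encodes the receptor for double-stranded RNA, which conventional dendritic cells of the cross-presenting type carry at high level. Log2 values of Tlr3 (probe set 10578493) were 5.47, 5.42 and 5.23 in the PBS arrays and 5.78, 5.47 and 5.47 in the rapamycin arrays, and PBS replicate 1, rapamycin replicate 2 and rapamycin replicate 3 held the same deposited value. Tlr3 lay below the stricter brightness threshold of 5.71 (the 50th percentile of named probe sets). Its difference of 0.20 ± 0.10 (log2, SE; 95% interval -0.04 to 0.44) did not pass limma's test (adjusted p 0.254).

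**Figure D2:**
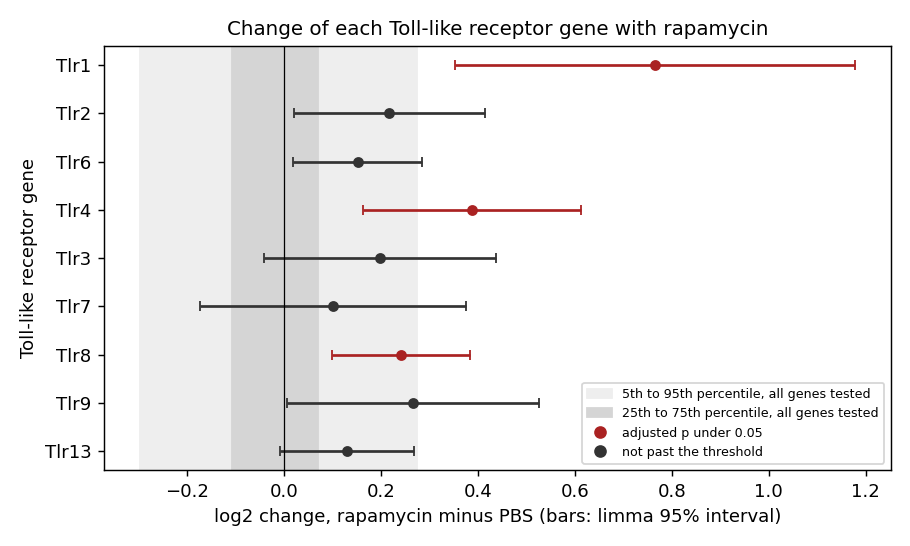
Log2 change with rapamycin (horizontal axis, rapamycin minus PBS, n = 3 arrays each) of each measured Toll-like receptor gene, with limma's 95% interval as bars and called genes in red. Grey bands show the 25th to 75th percentile (-0.11 to 0.07) and the 5th to 95th percentile (-0.30 to 0.27) of the change over all 13965 genes tested, and the points of Tlr1 (0.76) and Tlr4 (0.39) lie beyond the outer band.

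The average over the members also differed between the arrays of one group. After each gene's mean over the 6 arrays was subtracted, the 4 measured surface members averaged -0.07, -0.17 and -0.33 in the PBS arrays and 0.30, 0.23 and 0.04 in the rapamycin arrays. The 5 endosomal members averaged -0.05, -0.09 and -0.14 in the PBS arrays and 0.16, 0.08 and 0.05 in the rapamycin arrays. Neither set overlapped between the groups, and no test was made on these averages because the genes were chosen. Single members weighed on both sets. In rapamycin replicate 3 the endosomal average held Tlr7 at 0.34 and Tlr8 at 0.02. Tlr3, Tlr9 and Tlr13 stood below 0 there, at -0.01, -0.08 and -0.03. The surface set held Tlr1, whose log2 change of 0.76 compares with 0.15 (Tlr6) to 0.39 (Tlr4) for the others. PBS replicate 3 held the lowest PBS value for 7 of the 9 members, and rapamycin replicate 3 held the lowest rapamycin value for 8 of the 9, counting the tied value of Tlr3. Tlr7 was the exception in rapamycin replicate 3, where it had its highest value.

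Genes that act with the receptors or beside them, such as other sensors of microbes, were taken from 9 lists of 116 genes. Of these, 109 were measured and 105 tested. With limma, 15 of the 105 rose (14.3%, against 4.42% of all genes tested), 6 fell (5.71%, against 6.92%) and 84 were not called, at a median log2 change of 0.10. The lists were chosen with earlier results of these data known, and no test was made on these shares. Cd14, the co-receptor that hands lipopolysaccharide to TLR4, rose by 2.22-fold, and Myd88, the adaptor of most of the family, by 1.49-fold. The split between higher and lower depended on the scaling. It was 12 higher and 10 lower with the medians of all probe sets aligned, and 23 higher and 4 lower with the medians of the genes tested aligned. The counts also depended on single arrays. Dropping PBS replicate 1, 2 or 3 left 10, 2 or 5 genes called, and dropping rapamycin replicate 1, 2 or 3 gave 6, 10 or 23. With dim genes also tested, 8 rose and 3 fell. Of the 21 called genes, Cd14 and Atf3 kept their call in all 15 alternative settings, and Myd88, Slc15a4 and Tmed7 lost it only without PBS replicate 2 (limma adjusted p 0.0504 for each). The other 16 lost it in between 2 and 10 of the 15.

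**Figure D3:**
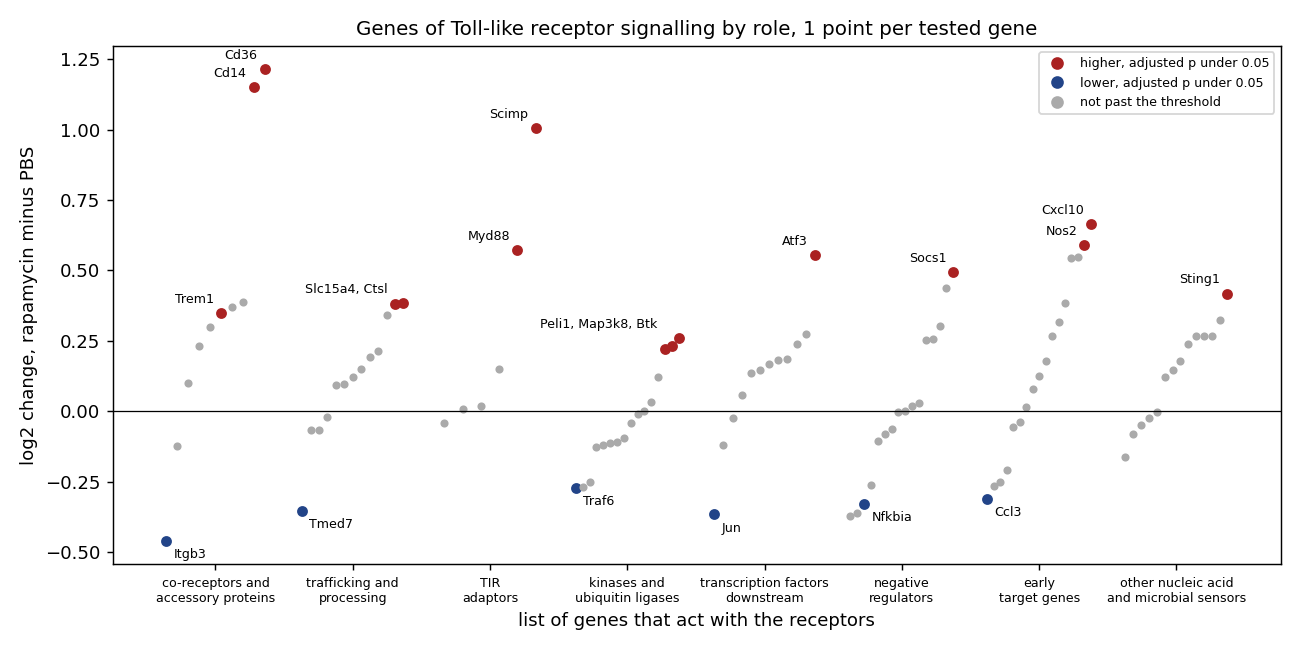
Log2 change with rapamycin (vertical axis, rapamycin minus PBS, n = 3 arrays each) of each tested gene in 8 of the lists of genes that act with Toll-like receptors or beside them, with called genes in red (higher) or blue (lower) and named. Cd36 (1.21) and Cd14 (1.15) stand highest, and 6 genes from Itgb3 (-0.46) to Traf6 (-0.27) are called lower.

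Of 10 measured co-receptors and accessory proteins, 3 rose, 1 fell and 6 were not called (median 0.32). The log2 values of Cd14 were 8.40, 8.54 and 8.23 in the PBS arrays and 9.46, 9.72 and 9.43 in the rapamycin arrays. The groups stood far apart, and the change was 1.15 ± 0.10 (log2, SE; limma adjusted p 0.00431). Cd36, a scavenger receptor that assists TLR2 with some lipids, rose by 1.21 ± 0.25, and Trem1, a receptor that amplifies responses to TLR ligands, rose by 0.35 ± 0.09 (limma adjusted p 0.0285 and 0.0467). Itgb3, the integrin beta 3 chain, changed by -0.46 ± 0.10 (limma adjusted p 0.0304). Ly96, which encodes MD-2, differed by 0.30 ± 0.10 (limma adjusted p 0.0885). Its log2 values were 9.44, 9.35 and 9.10 in the PBS arrays and 9.67, 9.63 and 9.49 in the rapamycin arrays, without overlap. Cd180, a TLR4-like surface protein without a signalling TIR domain, differed by 0.39 ± 0.10 and its partner Ly86 (MD-1) by 0.37 ± 0.14, and neither passed the test (limma adjusted p 0.0532 and 0.145).

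Of 13 measured genes for the trafficking and processing of the receptors, 2 rose, 1 fell and 10 were not called (median 0.12). Slc15a4, a histidine transporter of endolysosomes that TLR7 and TLR9 signalling requires, had log2 values of 7.67, 7.65 and 7.66 in the PBS arrays and 8.10, 8.01 and 8.02 in the rapamycin arrays. The arrays of each group lay close together, and the change was 0.38 ± 0.05 (log2, SE; limma adjusted p 0.00754). The endolysosomal protease cathepsin L (Ctsl) rose by 0.38 ± 0.10 (limma adjusted p 0.0478), a call lost in 10 of the 15 alternative settings. Tmed7, a cargo receptor of the secretory pathway that carries TLR4, changed by -0.35 ± 0.05 (limma adjusted p 0.00840). Unc93b1, the chaperone that escorts the endosomal receptors, differed by 0.12 ± 0.06 (limma adjusted p 0.218). The folding factor Cnpy3 differed by 0.21 ± 0.06 and its partner Hsp90b1 by 0.10 ± 0.08 (limma adjusted p 0.0624 and 0.472).

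Of 6 tested adaptor genes, 2 rose and 4 did not pass the test (median 0.09), and Sarm1 lay below the brightness threshold. Myd88 had log2 values of 10.76, 10.63 and 10.51 in the PBS arrays and 11.24, 11.22 and 11.15 in the rapamycin arrays. The lowest rapamycin array lay well above the highest PBS array, and the change was 0.57 ± 0.07 (log2, SE; limma adjusted p 0.00754). Scimp, a membrane adaptor that binds TLR4, had log2 values of 6.97, 6.42 and 6.21 in the PBS arrays and 7.92, 7.50 and 7.20 in the rapamycin arrays. Its groups did not overlap and it rose by 2.01-fold (limma adjusted p 0.0369). The adaptors of the other branch, Ticam1 (TRIF) and Ticam2 (TRAM), differed by 0.02 ± 0.04 and 0.01 ± 0.08, with 95% intervals from -0.08 to 0.12 and from -0.17 to 0.19. Tirap, which bridges TLR2 and TLR4 to MyD88, differed by 0.15 ± 0.07 (limma adjusted p 0.185).

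Of 16 measured kinases and ubiquitin ligases, 3 rose, 1 fell and 12 were not called (median -0.07). The ligase Peli1 rose by 0.26 ± 0.06 (SE), the kinase Map3k8 (Tpl2) by 0.23 ± 0.06 and the kinase Btk by 0.22 ± 0.06, with limma's adjusted p of 0.0298, 0.0457 and 0.0495. Traf6, the ubiquitin ligase downstream of MyD88, changed by -0.27 ± 0.06 (limma adjusted p 0.0375). Its log2 values were 8.51, 8.34 and 8.47 in the PBS arrays and 8.10, 8.18 and 8.24 in the rapamycin arrays. The kinases Irak1 and Irak2, which MyD88 recruits, differed by 0.001 ± 0.05 and -0.01 ± 0.04, with 95% intervals from -0.11 to 0.12 and from -0.10 to 0.08. Irak2 held the same deposited value, 7.79, on PBS replicate 3 and all 3 rapamycin arrays. Its interval therefore does not rest on a spread among the rapamycin arrays (SD 0).

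Of 12 measured transcription factors downstream, Atf3, which restrains cytokine genes, rose by 0.55 ± 0.07 (log2, SE; limma adjusted p 0.00770), and Jun, a subunit of AP-1, changed by -0.37 ± 0.09 (0.0378). The other 10 did not pass the test (median of the 12 genes 0.16), among them the NF-kappa-B subunit Rela, which differed by -0.02 ± 0.05. Of 16 measured negative regulators, 1 rose, 1 fell and 14 were not called, at a median of -0.0015. Socs1, a suppressor of cytokine signalling, rose by 0.49 ± 0.12 (limma adjusted p 0.0448). The NF-kappa-B inhibitor Nfkbia changed by -0.33 ± 0.06 (limma adjusted p 0.0213), from 10.90, 10.99 and 10.98 in the PBS arrays to 10.65, 10.52 and 10.72 in the rapamycin arrays.

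Of 17 tested early target genes of the receptors, 2 rose, 1 fell and 14 were not called (median 0.13). The chemokine Cxcl10 rose by 0.67 ± 0.15 (log2, SE) and Nos2, the inducible nitric oxide synthase, by 0.59 ± 0.12, and the chemokine Ccl3 changed by -0.31 ± 0.07 (limma adjusted p 0.0334, 0.0272 and 0.0380). The cytokine genes Tnf and Il1b differed by 0.13 ± 0.08 and -0.21 ± 0.15 (limma adjusted p 0.368 and 0.396). Il6, Il10 and Ifnb1 lay below the brightness threshold and were not tested.

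Markers of the cell types in the sort, and genes of dissociation stress, were read beside the receptors. Of 79 tested genes in these 10 lists, 5 rose with limma (6.33%, against 4.42% of all genes tested). Another 12 fell (15.2%, against 6.92%). Itgam, the sorted antigen, had log2 values of 12.31, 12.48 and 12.38 in the PBS arrays and 12.29, 12.30 and 12.22 in the rapamycin arrays. Its difference of -0.12 ± 0.06 (log2, SE) did not pass limma's test (adjusted p 0.221). All 12 neutrophil genes lay above the brightness threshold and 0 were called with limma (0 at an unadjusted p under 0.05), and their summed linear signal (2 to the power of the log2 value) was 80750 to 85600 in the PBS arrays and 76470 to 83710 in the rapamycin arrays. Of 10 measured monocyte genes 2 fell, Ccr2 by 0.34 ± 0.08 and Ace by 0.57 ± 0.13, and their summed signal was 8264 to 8745 with PBS and 8233 to 9164 with rapamycin. Of 12 macrophage genes 1 rose, Cd68 by 0.83 ± 0.09, and 1 fell, the mannose receptor Mrc1, by 1.04 ± 0.14. The summed macrophage signal was 5020 to 6953 with PBS and 7601 to 7843 with rapamycin, and Cd68, its brightest gene, carried this separation: without it the sums overlapped (3580 to 5094 and 4656 to 4956). Of 10 tested genes of conventional dendritic cells, the integrin Itgax rose by 0.82 ± 0.18. The sums overlapped (4374 to 4853 and 4638 to 5180), but Cd24a, which other blood cells also carry, made up 86.1% of them. Without Cd24a the sums were 553.4 to 656.2 with PBS and 676.5 to 823.5 with rapamycin, higher on all rapamycin arrays. These sums still held Itgax, the only called gene of the list, at log2 values of 8.04, 7.45 and 7.43 with PBS. With rapamycin its values were 8.68, 8.45 and 8.26. Itgax carried the separation: with its linear signal left out as well, the sums overlapped. The median log2 change of the 10 tested genes was -0.04. Xcr1, a marker of the cross-presenting type, lay below the brightness threshold. Clec9a, also of that type, had log2 values of 4.72, 4.51 and 4.36 with PBS and 5.30, 5.17 and 4.75 with rapamycin. These did not overlap, and the difference of 0.54 ± 0.15 did not pass limma's test (adjusted p 0.0631). Batf3, a factor of that type, differed by -0.09 ± 0.07 (limma adjusted p 0.441). Among the genes of plasmacytoid dendritic cells, Siglech and Ccr9 lay below the threshold, and of the 5 tested Bst2 fell by 0.25 ± 0.05. Their sums were 711.7 to 776.4 with PBS and 683.5 to 701.8 with rapamycin, and without Bst2, the brightest, the order turned (275.5 to 293.6 and 301.4 to 302.5). Of 10 measured B cell genes, 7 lay below the threshold, Ms4a1, Cd79a and Pax5 among them, and Cd79b fell by 0.32 ± 0.06 (sums 275.2 to 282.3 with PBS and 261.6 to 280.1 with rapamycin). Of 8 tested T cell genes Cd3g fell by 0.39 ± 0.09 and Cd8a by 0.27 ± 0.06, and Cd3d lay below the threshold (sums 388.6 to 429.3 and 314.9 to 366.6). Of 9 NK cell genes 6 lay below the threshold, Ncr1 among them, and Gzmb fell by 0.76 ± 0.11 (sums 289.8 to 334.9 and 242.5 to 258.8, and without Gzmb 196.7 to 228.6 and 188.1 to 197.3). Of 7 erythroid genes Slc4a1 rose by 0.64 ± 0.09 (sums 385.4 to 408.9 and 436.5 to 491.2). Of 9 measured genes of dissociation stress 2 rose and 4 fell. The sums overlapped (7102 to 8013 and 6509 to 7354), but Dusp1 made up 53.8% of them, and without it they were lower on all rapamycin arrays (2856 to 3362) than on all PBS arrays (3475 to 3882). Among them Egr1 fell by 1.13 ± 0.17, Ier2 by 0.55 ± 0.08 and Junb by 0.46 ± 0.09. Atf3, which rose, and Jun, which fell, are also in the list of transcription factors and are given above. In the 5 other lists, leaving out the brightest gene did not change whether or how the groups' sums were separated, and these sums were added after seeing the data. The part of cell composition and of dissociation stress in the differences of the receptor genes was not tested.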

How the data were processed

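RNA from the selected spleen cells of 6 mice was hybridised to 1 array per mouse. The authors deposited log2 values, summarised per probe set with RMA in Affymetrix Expression Console, per the submitters' processing notes, which name no versions. This method equalises the arrays, which would hide a shift shared by most genes. Array medians lay between 5.42 and 5.46, and no second normalization was applied. The number of arrays limits the precision.

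Of 35556 probe sets, 21789 had 1 gene symbol in GEO's platform annotation of 2016, 1621 had several and 12146 were not listed. They gave 19938 genes, of which 5973 dim ones were set aside. The 13965 others were compared with limma 3.58.1 (lmFit, eBayes) in R 4.3.3, 2-sided, with Benjamini-Hochberg adjustment. The fit was also run on data simulated with independent noise. The smallest change set there was larger than those of most receptors, so changes of their size were not tried. Of 224 list entries, 205 were matched. The members and lists were chosen with earlier results of these data known. Named were all members, the called genes of each list (at most 4, by moderated statistic), for each called member the 3 genes with the nearest profile, and others chosen after their values were seen. The alternatives changed the brightness filter, the scaling, the choice of probe set, the variance model, array weights, the replicate block and the arrays included. Aligning the medians of the genes tested was added after seeing the data. Plots were made in Python 3.11.15 with matplotlib 3.10.9.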

Additional observations from a re-analysis of the deposited data

How the results depend on the processing

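The 3 calls among the receptors were kept under the stricter brightness filter, repeated quantile normalization, the mean of probe sets, trend and robust estimation, array weights and aligned medians over the genes tested, and Tlr8 was lost with the medians of all probe sets aligned. All measured members had a difference above 0 in every setting in which they were tested, with 1 exception: Tlr7 ranged from -0.046 (without rapamycin replicate 3) to 0.1731 when single arrays were left out. With dim genes also tested, 0 receptors and 11 genes of the accompanying lists were called. The replicate number is shared by the labels of both groups, but the deviations of same-numbered arrays correlated at 0.26, 0.01 and 0.05 across genes, so no pairing was assumed. With the replicate block, 2 receptors (Tlr1 and Tlr4), 33 genes of the accompanying lists and 1691 of all genes were called. Limma's adjusted p was 0.00229 for Tlr1 and 0.0112 for Tlr4 with the block, against 0.0370 and 0.0443 without it. The calls of Tlr8 (adjusted p 0.0518), Ctsl (0.0605) and Map3k8 (0.0564) were lost with the block. When each array was left out in turn, the counts ran from 0 to 4 for the receptors, from 2 to 23 for the accompanying lists, from 1 to 16 for the marker lists and from 113 to 1336 for all genes, and these fits also had fewer samples. The split over all genes was 617 higher and 967 lower, and 875 higher and 707 lower with the medians of the genes tested aligned. Each measured member had 1 probe set with a single symbol, so a fit of other probe sets was not run. Signal over background is unknown for these values.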

Other observations

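Other sensors of microbes and of nucleic acids were read beside the Toll-like receptors. Of 14 measured genes, Sting1, which signals for cytosolic DNA, rose by 0.42 ± 0.06 (log2, SE; limma adjusted p 0.0109), from 10.30, 10.17 and 10.16 in the PBS arrays to 10.72, 10.57 and 10.59 in the rapamycin arrays. The call was lost without PBS replicate 2 or PBS replicate 3. The 13 others did not pass the test, at a median over the 14 of 0.16. Among the mouse Toll-like receptors outside the 10 listed, Tlr12, a receptor for a parasite profilin, had log2 values of 5.44, 5.28 and 5.08 in the PBS arrays and 5.31, 5.41 and 5.11 in the rapamycin arrays. Its difference was 0.01 ± 0.11 (95% interval -0.25 to 0.27), and Tlr11 was not analysed here.

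The tested genes whose profile over the 6 arrays lay closest to Tlr1, by the root mean square difference after each gene's mean was subtracted, were Ralgds (0.066), Kynu (0.070) and Tmem106a (0.083). The closest to Tlr4 were Cd200r4 (0.031), Pilra (0.038) and Atp7a (0.041). The closest to Tlr8 were Map3k8 (0.017), Lgals8 (0.023) and Polb (0.024). Their log2 changes were between 0.69 and 0.77 for the genes near Tlr1, between 0.33 and 0.37 for those near Tlr4, and between 0.20 and 0.23 for those near Tlr8.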
